A study of Mus musculus with 6 samples.

Results

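The genes described here are 52 genes of mitosis and the spindle, a list of cyclins, kinases, checkpoint proteins, kinetochore proteins, motors and cytokinesis factors. They share a function, but the list was chosen with earlier results of these data known. Of these, 50 had a row of their own on the array, all 50 passed the filter on dim rows, and they are 50 of the 19123 genes tested. Ccnb1 had no row under its own symbol and Foxm1 was listed only in a row shared with another gene, so neither has a value. The brightest row annotated with a gene's symbol, on average over the arrays of both groups, stood for the gene.

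The samples were primary hepatocytes of C57BL/6 mice aged 3 months, taken by perfusion of the liver and left untreated. The 3 wild type samples were compared with 3 samples from mice with a hepatocyte-specific knockout of SRSF1, an RNA-binding protein that helps to choose splice sites. Each sample was hybridised to 1 mouse exon array. The labels call the cells primary hepatocyte cultures, and the sources used here give neither the driver of the knockout nor the deleted exons nor a time in culture. The labels do not say whether the samples came from separate animals, so p-values cover the spread of these arrays only, and that spread may be technical.

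A cell enters mitosis when cyclins of the A and B types activate the kinase Cdk1. The Aurora and Polo-like kinases then build the spindle, the spindle checkpoint holds the cell until every kinetochore is attached, and the anaphase-promoting complex with Cdc20 ends mitosis by marking cyclin B and securin for destruction. Most of these genes are transcribed together late in the cell cycle and are silent in resting cells. Hepatocytes of the adult liver are mostly at rest, many of them with more than a diploid set of chromosomes, and they re-enter the cycle after injury or loss of liver mass.

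Promoters of genes of this class are known for a short element near the start site, the cell cycle genes homology region with the common form TTTGAA, and for CCAAT boxes, which the factor NF-Y binds. The RefSeq promoter table (build GRCm38.p6) held 44 of the 52 genes in 48 windows, each of 300 bases from 250 before to 50 after a start. Bub3, Cep55, Ect2 and Prc1 had 2 starts each, and a gene counts once if any of its windows holds the letters. The letters TTTGAA, on either strand, were found in 31 of the 44 genes (70.5%) and in 20.2% of all 27025 genes of the table. CCAAT, on either strand, was found in 31 (70.5%, against 41.1% of all genes). Both were found in 25 (56.8%, against 7.97%). In the windows of the members 1 TTTGAA match overlapped a CCAAT match and 1 CCAAT match overlapped another. These are counts of letters, not of bound sites. The stretches below, from 130 bases before to 20 after the start and read 5′ to 3′ along the gene, are of genes that rose in the knockout and hold both sets of letters. For Prc1 1 of its 2 starts is shown. Capitals mark TTTGAA and CCAAT or their reverse complements TTCAAA and ATTGG.
Ccnb2, chr9:70421535-70421684, minus strand: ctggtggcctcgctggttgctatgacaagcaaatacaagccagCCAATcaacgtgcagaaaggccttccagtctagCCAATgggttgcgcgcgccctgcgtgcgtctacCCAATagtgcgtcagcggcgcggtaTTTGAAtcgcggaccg
Cdk1, chr10:69352893-69353042, minus strand: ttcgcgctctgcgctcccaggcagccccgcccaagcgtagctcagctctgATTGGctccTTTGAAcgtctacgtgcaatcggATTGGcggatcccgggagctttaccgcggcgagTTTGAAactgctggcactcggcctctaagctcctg
Prc1, chr7:80294321-80294470, plus strand: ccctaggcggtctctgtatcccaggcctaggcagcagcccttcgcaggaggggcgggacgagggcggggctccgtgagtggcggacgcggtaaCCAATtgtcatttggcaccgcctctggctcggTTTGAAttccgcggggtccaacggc
Kif11, chr19:37376252-37376401, plus strand: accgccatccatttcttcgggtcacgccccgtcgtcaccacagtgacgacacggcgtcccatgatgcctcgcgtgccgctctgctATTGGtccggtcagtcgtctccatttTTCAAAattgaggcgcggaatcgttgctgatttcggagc
Top2a, chr11:99024170-99024319, minus strand: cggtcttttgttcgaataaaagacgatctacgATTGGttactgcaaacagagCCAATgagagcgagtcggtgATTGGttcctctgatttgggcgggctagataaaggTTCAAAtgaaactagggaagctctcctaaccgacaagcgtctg
Racgap1, chr15:99651637-99651786, minus strand: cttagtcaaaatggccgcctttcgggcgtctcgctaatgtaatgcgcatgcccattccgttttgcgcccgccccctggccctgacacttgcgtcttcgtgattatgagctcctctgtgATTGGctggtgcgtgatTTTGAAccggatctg
In Ccnb2 the 3 CCAAT boxes begin at -87, -54 and -21 and a TTTGAA at 5 from the start. In Cdk1 TTTGAA begins at -71 and -15. For comparison, the same stretches of Cdc20 and Ttk are shown, which hold the same letters and were not called different in the knockout.
Cdc20, chr4:118437324-118437473, minus strand: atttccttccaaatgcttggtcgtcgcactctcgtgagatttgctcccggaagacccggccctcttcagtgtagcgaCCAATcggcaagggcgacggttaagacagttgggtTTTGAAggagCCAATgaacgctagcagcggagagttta
Ttk, chr9:83834559-83834708, plus strand: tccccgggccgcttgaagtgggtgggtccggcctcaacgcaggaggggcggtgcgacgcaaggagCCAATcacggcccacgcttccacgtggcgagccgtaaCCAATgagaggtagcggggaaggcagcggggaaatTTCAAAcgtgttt
Among the genes with a window, TTTGAA was in 9 of the 12 that rose and in 22 of the 31 other tested members (71.0%). CCAAT was in 10 of 12 (83.3%) and 20 of 31 (64.5%), and both sets of letters were in 8 of 12 (66.7%) and 17 of 31 (54.8%). The difference between these shares was not tested.

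Overall brightness differed between arrays, with medians of the deposited intensities of 25.6 to 39.8 in the wild type arrays and 18.6 to 28.8 in the knockout arrays. Intensities below are therefore quantile normalized, on a linear scale. Log2 differences are knockout minus wild type of log2(intensity + 16) after quantile normalization, with the standard error, which understates the change of dim genes. On the deposited values the median of all genes lay at -0.44 and after quantile normalization at -0.01. The words rose and fell are kept for genes in which limma's test gave a Benjamini-Hochberg adjusted p under 0.05, over all genes tested, in both the quantile normalized and the deposited values. Adjusted p-values are limma's from the quantile normalized values unless the deposited values are named. For 1 gene alone an exact two-sided permutation test of 3 against 3 arrays cannot go below p = 0.1. The Srsf1 row read 666, 667 and 607 in wild type against 242, 371 and 386 as deposited. There the log2 difference was -0.95 ± 0.27 (adjusted p = 0.010) and -0.53 ± 0.18 (adjusted p = 0.184) after quantile normalization. Knockout replicate 1 stood apart: Xist, the noncoding RNA of the inactive X chromosome, read 9.95 in it and 2122 to 3532 in the other arrays (deposited values). A reading this low is that of cells without an inactive X chromosome, as in males, so sex probably differed within the knockout group. The part of sex in the differences was not tested. Each main result is therefore also given without knockout replicate 1. Of the 10 hepatocyte markers tested, none was called in both fits, and Alb was lower after quantile normalization only (-0.39 ± 0.05). At an unadjusted limma p under 0.05, 0 were higher and 3 lower after quantile normalization, against 8.96% and 6.41% of all genes. Their summed intensity was 64942, 64624 and 63858 in wild type against 59918, 61194 and 61745 in the knockout. Their median rank lay between the percentiles 99.7 and 99.9 of all genes in every array, where rank can hardly show a drop.

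Of the 50 mitosis and spindle genes 13 rose in the knockout and none fell. This was 26% of the members, where 0.842% of all genes tested rose and 1.41% fell. Since the list was chosen with results known, these shares are a description and not a test. After quantile normalization alone 14 were higher and 0 lower (2.74% and 1.42% of all genes), and on the deposited values 19 were higher and 0 lower (0.931% and 6.86% of all genes). At an unadjusted limma p under 0.05, 28 members were higher and 0 lower after quantile normalization, against 8.96% and 6.41% of all genes. On the deposited values 22 were higher and 1 lower, against 1.52% and 28.5% of all genes. The median log2 difference of the 50 genes was 0.50, against -0.01 for all genes, and on the deposited values 0.08 against -0.44. Large and small differences stood side by side. In 22 of the 50 the difference was above 1 log2 unit, which 1.49% of all genes reached, and 20 of the 50 were among the top 1% of all genes tested. The 28 others had a median of 0.14, and none of them was called in either fit. Of the 22, 13 were called in both fits, 6 on the deposited values only, 1 after quantile normalization only and 2 in neither. In all 22 the 3 knockout arrays lay above the 3 wild type arrays, and over the 50 genes this held for 25, where it held for 11.6% of all genes. In 1 gene, Cdc25c, the knockout arrays all lay lower, as in 10.1% of all genes.

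**Figure D1:**
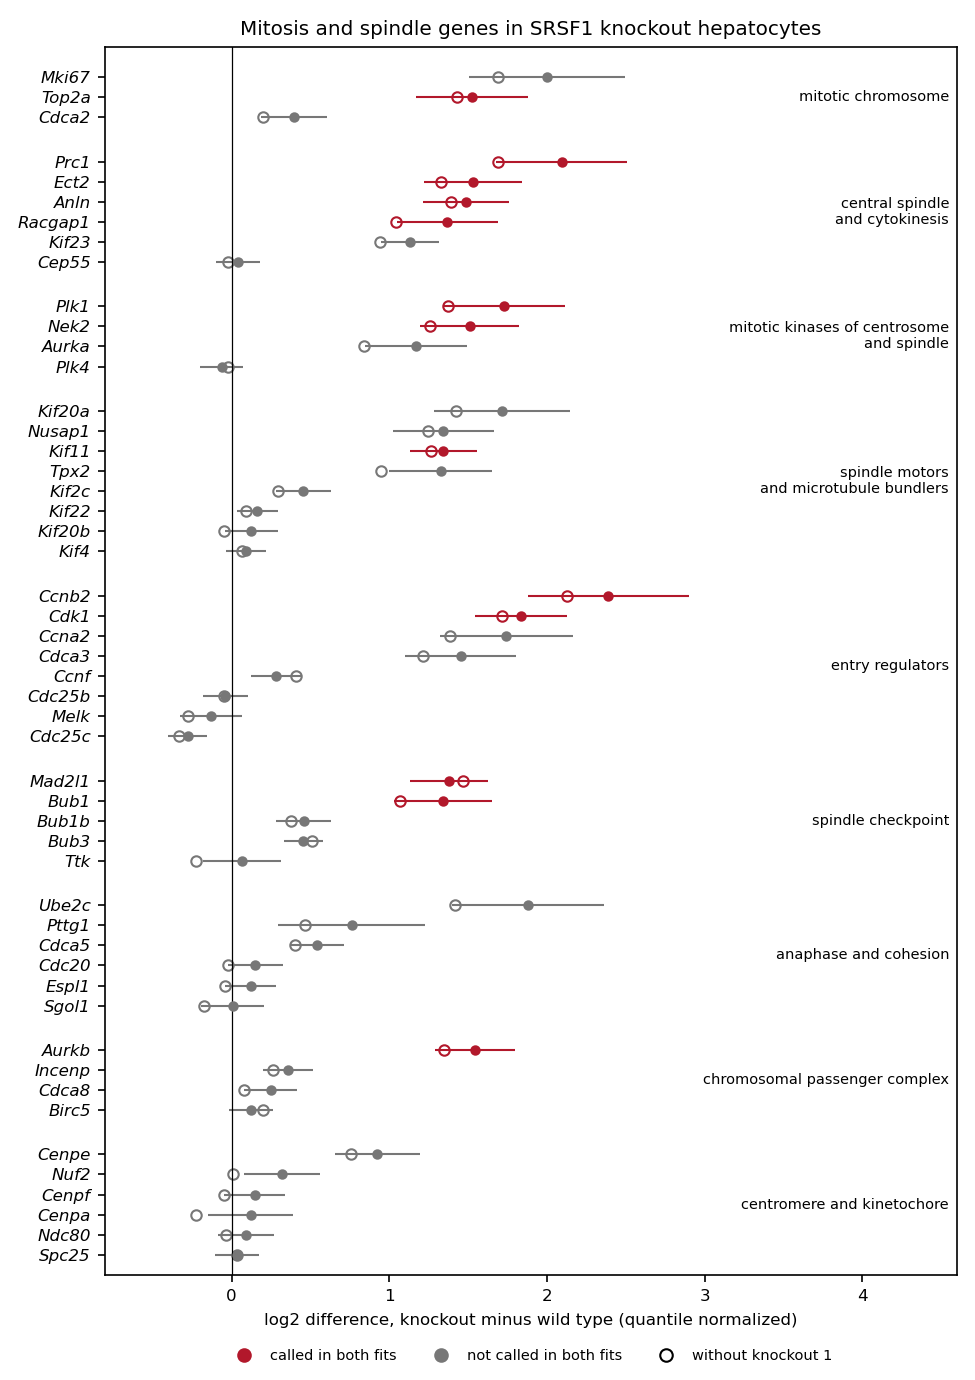
Log2 difference (knockout minus wild type, quantile normalized) of the 50 measured mitosis and spindle genes, grouped by role; filled points are the difference with all 6 arrays, bars its standard error and open points the difference without knockout replicate 1. The 13 genes called in both fits (red) lie between 1.34 and 2.39, and 4 of them are genes of the central spindle and cytokinesis.

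The level of these genes within wild type was not uniform. Wild type replicate 3 was the highest wild type array in all 13 rising genes and in 35 of the 50 members, where it was the highest in 24.8% of all genes. Knockout replicate 1 was the highest of all 6 arrays in 41 of the 50 members, where it was in 31.3% of all genes. For the 13 rising genes the wild type arrays, in the order of their replicate numbers, had mean log2 values of 6.26, 5.90 and 7.11. The knockout arrays had 8.50, 7.87 and 7.78. The 3 knockout arrays thus lay above wild type replicate 3, by less than above the other wild type arrays. Without knockout replicate 1 the median difference of the 50 genes was 0.44, and 13 genes rose, where 0.967% of all genes did, and 0 fell, where 5.29% did. On the quantile normalized values alone 23 were then higher and 0 lower, against 9.71% and 5.4% of all genes. Of the 13, 9 were among the 13 called with all arrays. Nek2, Racgap1, Kif11 and Bub1 were called only with that array, while Mki67, Ube2c, Ccna2 and Kif20a were called only without it. The number that rose was 1 without wild type replicate 1, 1 without wild type replicate 2, 18 without wild type replicate 3, 3 without knockout replicate 2 and 5 without knockout replicate 3. Cdk1 was the only gene of the 13 called whichever array was left out.

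**Figure D2:**
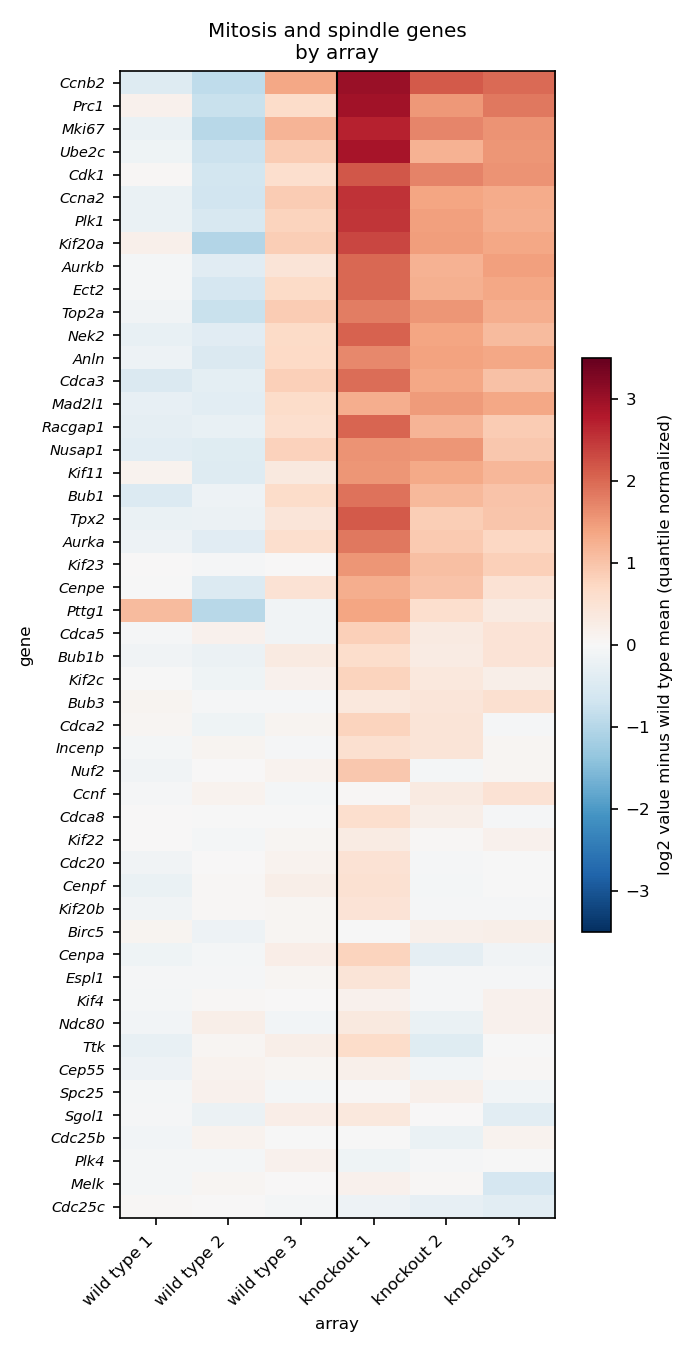
Log2 value of each gene in each array after quantile normalization, minus the mean of the 3 wild type arrays (colour), with genes ordered by the difference between the groups. Knockout replicate 1 has the strongest colour in most upper rows, wild type replicate 3 is the highest wild type array in 21 of the 22 genes with a difference above 1, and in the lower rows the groups differ little, while single arrays stand out in some genes (Ttk and Cenpa in knockout replicate 1).

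Rank within an array does not depend on the scale between arrays. The median rank of the 13 rising genes among all genes tested was at the percentiles 25.0, 10.4 and 50.6 in the wild type arrays, in the order of their replicate numbers. In the knockout arrays it was at 81.5, 65.6 and 61.5. The median was thus below the middle of all genes in wild type replicates 1 and 2, near it in replicate 3 and above it in every knockout array. The other 37 members had medians of 33.1, 32.2 and 40.4 in wild type against 55.5, 47.5 and 40.8 in the knockout. Ranked in this way, the groups did not overlap in 25 of the 50 members with the knockout higher, where this held for 11.2% of all genes. Quantile normalization keeps the order within an array, so this count largely repeats the one given above and adds no separate support.

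**Figure D3:**
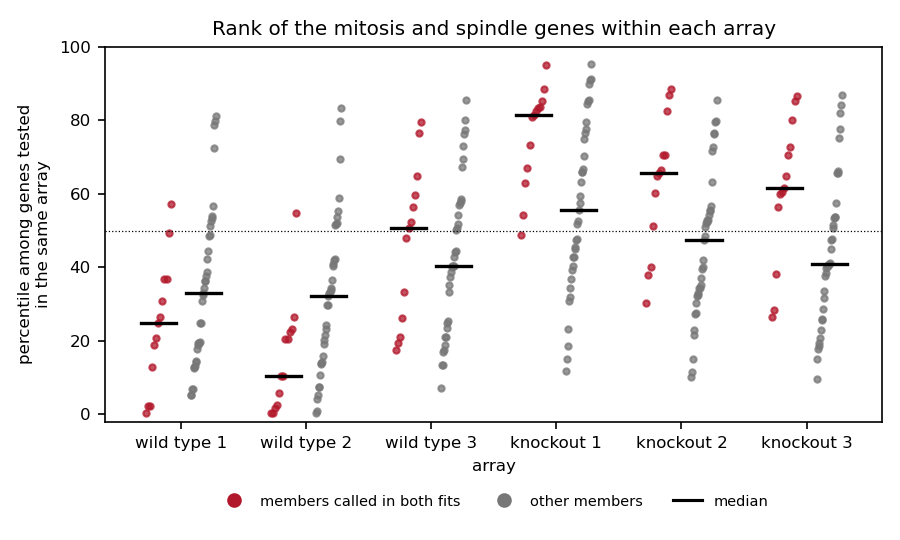
Percentile of each mitosis and spindle gene among the 19123 genes tested in the same array, for the 13 genes called in both fits (red) and the other 37 (grey), with the median as a bar. The red medians run from 10.4 to 50.6 in wild type and from 61.5 to 81.5 in the knockout.

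Among the regulators of entry into mitosis 2 of 8 measured genes rose, the cyclin Ccnb2 and the kinase Cdk1. Ccnb2, a B-type cyclin, read 93.4, 65.5 and 364 in wild type against 1208, 655 and 578 in the knockout. Its log2 difference of 2.39 ± 0.51 (adjusted p = 0.034) was the largest of the 50. Even the highest wild type array lay below every knockout array, and the mean was 4.66 times that of wild type. Cdk1, the kinase that B-type cyclins activate, read 128, 72.6 and 195 in wild type against 615, 451 and 401 in the knockout (1.84 ± 0.29, adjusted p = 0.0089). Without knockout replicate 1 the differences of Ccnb2 and Cdk1 were 2.12 and 1.72. Ccna2, the A-type cyclin of S phase and early mitosis, read 97.4, 67.4 and 230 against 756, 332 and 308 (1.74 ± 0.42). It passed on the deposited values (adjusted p = 0.00050) and not after quantile normalization (adjusted p = 0.056). Cdca3, which takes part in the destruction of the Cdk1 inhibitor Wee1, had 1.45 ± 0.35 and the same pattern of calls (adjusted p = 0.055). Of the phosphatases that switch Cdk1 on, Cdc25b had -0.04 ± 0.14 and Cdc25c -0.28 ± 0.12, with Cdc25c lower in every knockout array (117, 107 and 102) than in every wild type array (140, 138 and 129). The cyclin-like F-box protein Ccnf (0.28 ± 0.16) and the kinase Melk (-0.13 ± 0.19) were not called.

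Of the 4 kinases of the centrosome and spindle, Plk1 and Nek2 rose. Plk1, which acts in centrosome maturation, spindle assembly and cytokinesis, read 55.7, 40.4 and 128 in wild type against 454, 209 and 184 in the knockout (1.73 ± 0.39, adjusted p = 0.041). The knockout mean was 3.78 times the wild type mean. A second row of Plk1, dimmer on average over both groups, read 85.4, 83.9 and 57.9 against 50.8, 62.3 and 73.9. Its groups overlapped, with a difference of -0.22, and the median of both rows gave 0.75. This second row was the brighter one in the wild type arrays where the row used read 55.7 and 40.4. The row used was brighter in the remaining wild type array and in every knockout array. The choice between the rows of Plk1 thus rested in part on the knockout values. Nek2, which separates the centrosomes, had 1.51 ± 0.31 (adjusted p = 0.031) and 1.26 without knockout replicate 1. Aurka, the Aurora kinase of the spindle poles, read 57.1, 46.8 and 109 against 282, 142 and 123 (1.17 ± 0.32, adjusted p = 0.088) and was not called in either fit. Plk4, the kinase that starts centriole duplication, had a difference of -0.06 ± 0.13.

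The spindle checkpoint was split between genes with large and small differences. Mad2l1, the checkpoint protein that holds Cdc20, rose from 159, 149 and 314 to 498, 585 and 525 (1.38 ± 0.25, adjusted p = 0.016). It was the only one of the 13 rising genes that was not highest in knockout replicate 1, and its difference was 1.47 without that array. The checkpoint kinase Bub1 rose from 15.3, 22.6 and 51.6 to 145, 78.9 and 70.6 (1.34 ± 0.31, adjusted p = 0.048). Its wild type values were among the dimmest of all genes, at the percentiles 0.30, 1.70 and 17.4. The related Bub1b (0.46 ± 0.17) and their partner Bub3 (0.46 ± 0.12) were not called, although Bub3 was higher in every knockout array (507, 530 and 587) than in wild type (416, 379 and 376). On the deposited values the difference of Bub3 was -0.01. Ttk, the kinase at the top of the checkpoint, read 368, 465 and 513 against 696, 330 and 437, and the groups overlapped (0.07 ± 0.25).

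None of the 6 genes of anaphase and sister chromatid cohesion was called in both fits. With limma at an unadjusted p under 0.05, 2 were higher and 0 lower after quantile normalization, against 8.96% and 6.41% of all genes. Ube2c, the ubiquitin-conjugating enzyme of the anaphase-promoting complex, read 143, 88.0 and 311 in wild type against 1285, 388 and 495 in the knockout (1.88 ± 0.48). It passed on the deposited values (adjusted p = 4.4e-05) and not after quantile normalization (adjusted p = 0.068), and in knockout replicate 1 it reached the percentile 95.4, the highest of any member in any array. Securin, Pttg1, read 387, 79.5 and 154 in wild type against 471, 267 and 216 in the knockout (0.76 ± 0.47), with wild type replicate 1 above 2 of the knockout arrays. Cdca5 (sororin), which protects cohesion, had 0.54 ± 0.17, and Cdc20 (0.15 ± 0.17), the protease separase, Espl1 (0.12 ± 0.16), and the protector of centromeric cohesion Sgol1 (0.01 ± 0.20) lay near 0. Of 15 further subunits and cofactors of the anaphase-promoting complex none was called in either fit, and their median was -0.03. At an unadjusted limma p under 0.05, 0 of the 15 were different after quantile normalization. On the deposited values 3 of the 15 were lower, where 28.5% of all genes were.

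In the chromosomal passenger complex, the kinase rose without its partners being called. Aurkb, the catalytic subunit, read 79.7, 59.7 and 120 in wild type against 382, 214 and 251 in the knockout (1.55 ± 0.25, adjusted p = 0.011). The scaffold Incenp had 0.36 ± 0.16, borealin, Cdca8, 0.25 ± 0.17 and survivin, Birc5, 0.13 ± 0.14, and their groups overlapped. Birc5 read 135, 108 and 132 against 124, 143 and 146. The difference between Aurkb and its partners was not tested.

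The genes of the centromere and kinetochore had the smallest differences of the roles, with a median of 0.13 over 6 genes and none called. At an unadjusted limma p under 0.05, 1 was higher and 0 lower after quantile normalization, against 8.96% and 6.41% of all genes. The exception was Cenpe, a kinetochore motor that brings chromosomes to the spindle equator, at 0.93 ± 0.27 (adjusted p = 0.105). It read 33.1, 19.4 and 54.3 in wild type against 104, 83.8 and 54.1 in the knockout, so that knockout replicate 3 did not exceed wild type replicate 3. Cenpa, the histone variant that marks the centromere, read 157, 168 and 213 against 320, 141 and 163, high in knockout replicate 1 alone; its difference was 0.12 with that array and -0.22 without it. The 3 dimmer rows of Cenpa had differences of 0.07 to 0.13. Nuf2 (0.32 ± 0.24), Ndc80 (0.09 ± 0.18) and Spc25 (0.04 ± 0.14), subunits of the complex that binds microtubules at the kinetochore, and Cenpf (0.15 ± 0.19) were not called.

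Among 8 spindle motors and microtubule bundlers, Kif11 rose. Kif11, the motor that pushes the spindle poles apart, read 68.0, 40.4 and 82.7 in wild type against 210, 178 and 158 in the knockout (1.34 ± 0.21, adjusted p = 0.0083). Its values were close together within the knockout, and its difference was 1.26 without knockout replicate 1. Kif20a, a motor of the central spindle (1.72 ± 0.43, adjusted p = 0.063), and Nusap1, which bundles spindle microtubules (1.34 ± 0.32, adjusted p = 0.052), passed on the deposited values only. After quantile normalization both had nonoverlapping groups. On the deposited values the groups of Nusap1 overlapped, with wild type replicate 3 (80.9) above knockout replicate 3 (73.8). The 2 dimmer rows of Nusap1 had differences of -0.05 and 0.17 with overlapping groups, and the median of its 3 rows gave 0.17. In wild type replicates 1 and 2 these rows read 33.3 and 40.9, and 33.0 and 38.8. The row used read 29.5 and 28.2 there and was the brighter one in wild type replicate 3 and every knockout array. The choice between the rows of Nusap1 thus also rested in part on the knockout values. The Aurora A activator Tpx2 read 83.1, 84.8 and 141 against 494, 197 and 212 (1.33 ± 0.33, adjusted p = 0.059) and passed in neither fit. Kif2c (0.46 ± 0.17), Kif22 (0.16 ± 0.13), Kif20b (0.13 ± 0.17) and Kif4 (0.09 ± 0.13) were not called.

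With all arrays the central spindle and cytokinesis held the most rising genes of any role, 4 of 6. Without knockout replicate 1 the count was 3 of 6, beside 3 of the 8 regulators of entry into mitosis. Prc1, which crosslinks the microtubules of the central spindle, read 43.8, 15.3 and 67.6 in wild type against 396, 137 and 176 in the knockout (2.09 ± 0.41, adjusted p = 0.025). The mean was 5.60 times that of wild type, and 1.69 log2 units remained without knockout replicate 1. In wild type Prc1 lay at the percentiles 12.7, 0.27 and 26.1, so this ratio rests on dim values. Ect2, the exchange factor that activates RhoA at the division plane, rose from 93.2, 59.8 and 165 to 442, 255 and 276 (1.53 ± 0.31, adjusted p = 0.028). Anln, which links actin and myosin in the contractile ring, rose from 23.0, 15.2 and 55.2 to 127, 102 and 96.5 (1.49 ± 0.27, adjusted p = 0.018). For both the 3 knockout arrays lay above all wild type arrays. Racgap1, which recruits Ect2, rose from 23.4, 25.0 and 57.9 to 185, 96.0 and 75.1 (1.37 ± 0.32, adjusted p = 0.049). The wild type values of Anln (percentiles 2.09, 0.25 and 19.5) and Racgap1 (2.28, 2.61 and 21.0) were dim as well. Kif23, the motor that forms a complex with Racgap1, read 33.0, 30.7 and 32.7 in wild type against 123, 82.9 and 69.2 in the knockout. It passed after quantile normalization (1.13 ± 0.18, adjusted p = 0.010) and not on the deposited values (adjusted p = 0.092), and among the 22 genes with a difference above 1 it was the one in which wild type replicate 3 was not the highest wild type array. Cep55, the scaffold of abscission, had 0.04 ± 0.14.

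Of the 3 proteins of the mitotic chromosome, Top2a rose. This topoisomerase, which untangles sister DNA, read 59.1, 31.7 and 134 in wild type against 263, 221 and 179 in the knockout (1.53 ± 0.35, adjusted p = 0.047). Mki67, the proliferation marker that coats mitotic chromosomes, read 88.0, 47.1 and 266 against 785, 384 and 352 (2.0 ± 0.50). Its groups did not overlap and it passed on the deposited values (adjusted p = 5.9e-06), but after quantile normalization the adjusted p was 0.061, and 0.026 without knockout replicate 1. Cdca2, which recruits a phosphatase to chromosomes, had 0.39 ± 0.21.

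The genes with small differences were not all near the floor of the array. Ttk, Bub3 and Sgol1 lay at or above the percentile 65.6 in all 6 arrays, while Cdc25b and Plk4 stayed at or below 21.0. For 8 of the 50 genes the annotation held dimmer rows as well, 11 in all, 2 of them under the filter, and in these the difference lay between -0.33 and 0.36. Dimmer refers to the mean over both groups, so the choice of a gene's row was not independent of its knockout values. Whether a dimmer row reads the same transcript was not tested. In 18 of the 50 genes the difference was above 0 after quantile normalization and below 0 on the deposited values, and all 18 were among the 28 with differences of 1 or less.

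Further genes of the same machinery were taken from lists by function. Of 60 other mitosis genes tested, 4 rose and none fell, against 0.842% and 1.41% of all genes, and the median was 0.21. Without knockout replicate 1, 3 were higher and 1, Cenpi, lower in both fits, against 0.967% and 5.29% of all genes. Mastl was then no longer called. The 4 that rose with all arrays were Sgo2a, a protector of centromeric cohesion (1.81 ± 0.32), Arhgap11a, a regulator of RhoA in cytokinesis (1.53 ± 0.22), the kinetochore scaffold Knl1 (1.49 ± 0.28) and Mastl, the kinase that restrains a phosphatase opposing Cdk1 (1.32 ± 0.27). After quantile normalization alone 8 of the 60 were higher and 0 lower (2.74% and 1.42% of all genes). On the deposited values 5 were higher and 2 lower (0.931% and 6.86% of all genes). At an unadjusted limma p under 0.05, 23 were higher and 2 lower after quantile normalization, against 8.96% and 6.41% of all genes. On the deposited values 9 were higher and 10 lower, against 1.52% and 28.5% of all genes. Of 12 cohesin genes 1 rose: Esco2, the acetyltransferase that establishes cohesion in S phase, read 47.4, 36.0 and 111 in wild type against 348, 232 and 216 in the knockout on the deposited values (2.32 ± 0.39, adjusted p = 0.012). The other 11 cohesin genes had differences between -0.52 and 0.09.

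Genes of S phase and of the first gap phase held 1 rising gene each. Of 49 DNA replication genes 1 rose, the helicase subunit Mcm6 (1.46 ± 0.27, adjusted p = 0.020), and the median was 0.17. After quantile normalization alone 5 of the 49 were higher (2.74% of all genes), and 16 without knockout replicate 1 (9.71% of all genes). In a list of 14 genes of the first gap phase, with its cyclins, kinases and inhibitors, 1 rose and the median was 0.26. This was the transcription factor Myc (1.76 ± 0.24, adjusted p = 0.0045). No cyclin, kinase or inhibitor of the list was called in both fits with all arrays. After quantile normalization alone 4 of the 14 were higher (2.74% of all genes), and 7 without knockout replicate 1 (9.71% of all genes). Ccnd1, the D-type cyclin, had 0.96 ± 0.16 (adjusted p = 0.010) and passed after quantile normalization only; without knockout replicate 1 it passed in both fits. The cell cycle inhibitor Cdkn1a had 1.51 ± 0.46 (adjusted p = 0.121), passed on the deposited values only, and had 0.88 without knockout replicate 1, where it read 1073 on the deposited values against 311 and 328 in the other knockout arrays. None of these lists was compared with the 50 members by a test.

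Among 22 regulators of cell cycle transcription Mybl1 rose and no other was called in both fits. Mybl1, a Myb factor related to the one that works with FoxM1 on mitotic promoters, read 17.8, 31.7 and 18.8 in wild type against 162, 155 and 109 in the knockout on the deposited values. Its difference of 2.41 ± 0.16 (adjusted p = 0.00017) was as large without knockout replicate 1 (2.42). Among the wild type arrays it was highest in replicate 2, not in replicate 3. Mybl2 itself had 0.05 ± 0.16. E2f1, an activator of S phase genes, had 0.69 ± 0.25 (adjusted p = 0.206), E2f8, a repressor, -0.50 ± 0.18 (adjusted p = 0.207), and Rbl2, the pocket protein of resting cells, -0.67 ± 0.17 (adjusted p = 0.066). On the deposited values E2f8, Rbl2 and the E2F partner Tfdp2 were lower. Without knockout replicate 1 Rbl2 was lower in both fits (-0.48). The NF-Y subunits Nfya (0.04 ± 0.16), Nfyb (-0.08 ± 0.22) and Nfyc (-0.29 ± 0.15) were not called after quantile normalization.

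**Figure D4:**
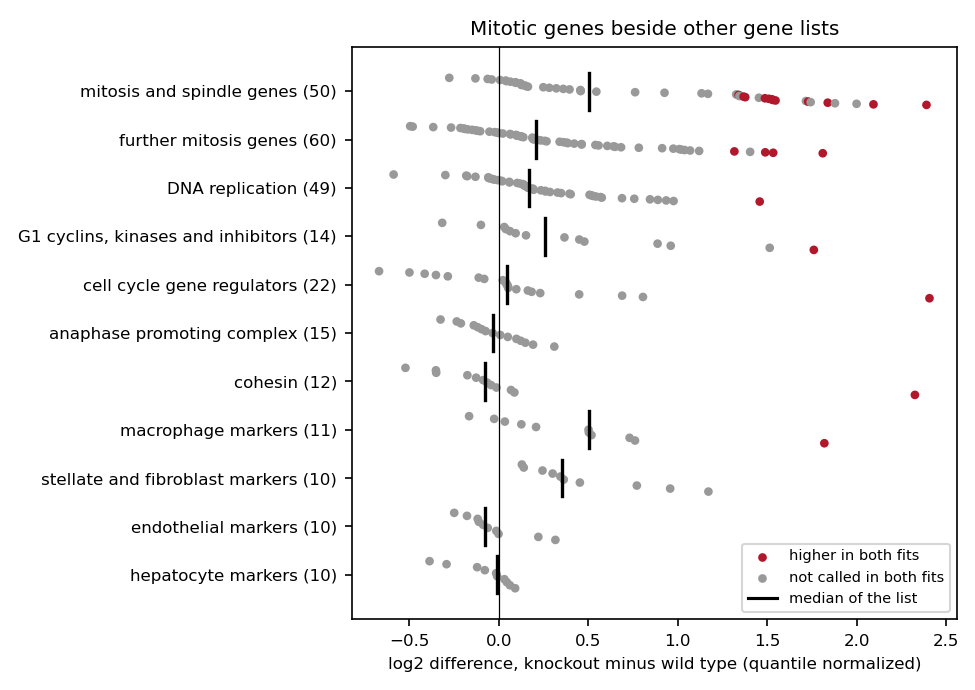
Log2 difference (knockout minus wild type, quantile normalized) of each gene in 11 lists, with the number of genes tested in parentheses, genes called in both fits in red and the median of each list as a bar. The mitosis and spindle genes have a median of 0.50 and 13 called genes, and the other lists hold at most 4 called genes each.

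In a whole sample, more dividing cells and more RNA per cell cannot be told apart, and other cells of the liver can be present beside hepatocytes. Of 11 macrophage markers 1 rose, Cd68 (1.82 ± 0.35), and the median was 0.50. After quantile normalization 5 of the 11 were higher and 0 lower at an unadjusted limma p under 0.05, against 8.96% and 6.41% of all genes. On the deposited values 1 was higher and 0 lower, against 1.52% and 28.5%. Without knockout replicate 1, 4 of these markers were higher after quantile normalization (adjusted p under 0.05), where 9.71% of all genes were. Their summed intensity was 1204, 1274 and 766 in wild type against 1812, 1599 and 1521 in the knockout, and none read 0. The sum of these markers was higher in every knockout array than in every wild type array, and lowest in wild type replicate 3. Of 10 stellate cell and fibroblast markers 0 were called in limma's fits. At an unadjusted limma p under 0.05, 5 were higher after quantile normalization, where 8.96% of all genes were. The sum of the 10 was 1782 to 2107 in wild type and 2424 to 3496 in the knockout, lowest there in knockout replicate 1. Without that array 2 of the 10, Dcn (1.30 ± 0.15) and Lum (1.79 ± 0.17), were higher in both fits and 4 after quantile normalization. Endothelial markers had a median of -0.07 and sums of 1309 to 1785 and 1272 to 1591. Of 5 lymphocyte markers tested, Ptprc was higher after quantile normalization only, and their sums were 407 to 435 and 428 to 554. Of 7 markers of erythroid precursors the transferrin receptor Tfrc rose (1.91 ± 0.20), a gene that dividing cells of many types express, while Klf1 had -0.73 ± 0.18 and Alas2 -0.40 ± 0.22, both lower on the deposited values only; without knockout replicate 1 Klf1 was lower in both fits. Of 5 cholangiocyte markers tested none was called, with a median of 0.01. The part of such cells in the differences of the mitotic genes was not tested.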

How the data were processed

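Expression was measured on 1 mouse exon array for each of 6 samples, 3 wild type and 3 knockout, grouped by the genotype in the labels; replicate numbers name arrays only. The authors deposited 1 linear intensity for each row and array, described in the labels as PLIER-normalized; the submitters' notes name the build mm9. The sources used here do not give PLIER's version or its settings. Columns left unused numbered 0. Of 238609 rows, 24343 carried 1 gene symbol and 1797 several, which named no gene. Sgol1 was matched through its synonym Sgo1.

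Intensities were quantile normalized over all rows, or left as deposited, and transformed as log2(intensity + 16). A filter at the 40th percentile of the rows' mean log2 values (5.18) retained 19123 of 20261 genes, each by its brightest row. Both scales were fitted with limma 3.58.1 in R 4.3.3 (eBayes with trend, genotype as the only term), and p-values were adjusted by Benjamini-Hochberg, with calls under 0.05. The fits were run on simulated data with independent noise of equal size in every gene and array. Such data do not copy shifts that a group of genes shares in single arrays. Precision is limited by the number of arrays. The members and lists were chosen with earlier results of these data known. All members could be named, and in each further list the 4 genes of lowest p among those called, or the 2 of lowest p where none was; all regulators of transcription could be named. Ccnd1, Cdkn1a, Cenpi, Lum, Klf1 and Alas2 were named after their values were seen. Alternatives were other pseudocounts, filters, scalings and variance settings, array weights, the median of a gene's rows, and leaving out each array.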

Additional observations from a re-analysis of the deposited data

How the results depend on the processing

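The count of 13 rising genes went to 9 to 14 with pseudocounts of 1 or 64, no filter or a filter at the 60th percentile, robust variances, no intensity trend or the median of a gene's rows. It was 22 higher and 1 lower with array weights, whose estimate stopped before it converged. With these weights 27 were higher and 1 lower after quantile normalization, and 23 were lower on the deposited values. Leaving out each array in turn gave 1 to 18 rising genes, 2 to 23 higher genes after quantile normalization and 7 to 20 on the deposited values, with 0 to 2 lower there. The median difference lay between 0.39 and 0.61 under every alternative run. No called gene changed sign in the quantile normalized fit under any alternative. Uncalled genes near 0 did: with the median of their rows Cdc25b (0.11), Plk4 (0.15) and Sgol1 (-0.16), and with array weights Cdc25b (0.051), Ttk (-0.037), Espl1 (-0.0093), Sgol1 (-0.23), Cenpa (-0.090), Spc25 (-0.024) and Kif20b (-0.0019). Sgol1 was -0.0066 with median scaling and -0.027 with cyclic loess. Leaving out arrays in turn, the ranges were -0.024 to 0.24 for Cdc20, -0.12 to 0.051 for Cdc25b, -0.22 to 0.33 for Cenpa, -0.048 to 0.25 for Cenpf, -0.045 to 0.11 for Cep55, -0.042 to 0.20 for Espl1, -0.045 to 0.21 for Kif20b, -0.27 to 0.097 for Melk, -0.035 to 0.25 for Ndc80, -0.10 to 0.018 for Plk4, -0.18 to 0.19 for Sgol1, -0.029 to 0.12 for Spc25 and -0.22 to 0.30 for Ttk. The cause was not tested. No paired analysis was possible because the labels give no replicate number that the groups share.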
